A study of Mus musculus with 8 samples.

Results

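The genes described here are 47 genes of mitosis and cytokinesis, taken by symbol from a list that leaves out the kinesin motors other than Cenpe. The list was chosen with earlier results of these data known. All 47 were found among the 23038 genes of the deposited table, and all 47 passed the filter for testing. RNA came from CAD cells (Cath.a differentiated), a mouse catecholaminergic neuronal line, kept undifferentiated and dividing in medium with 8% fetal bovine serum. One group of 4 libraries came from wild-type control cells, whose genotype label reads as a control knockout, and the other group of 4 came from PFN1 KO cells. In the PFN1 KO cells CRISPR/Cas9 had been used to delete Pfn1, which encodes the actin-binding protein profilin 1. The labels call the 4 libraries of a group biological replicates without saying whether they were clones or parallel cultures, and p-values therefore describe the variation among these 8 libraries, which may be technical.

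Pfn1 itself stood at 428, 399, 429 and 436 RPKM in control libraries 1 to 4 and at 152, 130, 130 and 143 RPKM in knockout libraries 1 to 4, so transcript was reduced in all 4 and still present. The fall was to 32.9% of control (log2 fold change -1.60, adjusted p = 3.7e-09, limma). RPKM is a read count scaled to gene length and to library size. An estimated 26200000 to 34500000 reads lay behind each library, and an estimated 560 to 42700 reads per library behind each member. Of 9 markers of catecholaminergic neurons, Dbh stood at 31.7 RPKM and Th at 2.25 RPKM in control cells, Ddc was under 1 RPKM, and the other 6 were at 42.3 RPKM or more. Of the 8 of these markers tested, Dbh, Th and Syt1 fell in knockout cells to 32.7%, 34.3% and 87.8% of control. Scg2, Snap25 and Tubb3 rose to 194%, 152% and 112%, and Gap43 and Chga were not called. Of 8 markers of other cell types only Dcn and Pecam1, at 2.84 and 2.63 RPKM in control cells, were high enough to test, and neither was called. Control library 4 and knockout library 1 stood apart on the second principal component (14% of the variance), at -11 and 11.5 against -6.4 to 5.1 in the other 6 libraries. The counts of members and of related genes are given with and without this pair of libraries.

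Mitosis is driven by the kinase CDK1 with cyclin B, held back by the spindle assembly checkpoint until every kinetochore is attached, and ended when the anaphase-promoting complex (APC/C) marks securin and cyclin B for destruction. Cytokinesis then divides the cell with a contractile ring of actin and myosin, placed by the central spindle. Most genes of this programme are transcribed in waves, high in G2 and M phase and low in G1, through the MuvB complex with B-MYB and FOXM1. In a mixed culture their RNA therefore reports both how many cells are in G2 and M and how much RNA each such cell holds, and these cannot be told apart here.

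Of the 47 genes, 35 were called lower in knockout cells, 2 were called higher, and 10 were not called (limma on log2(RPKM + 1), Benjamini-Hochberg adjusted p under 0.05 over all tested genes). Over all 11465 genes tested, 15.5% were called lower and 30.4% higher, 45.9% in either direction. As the members were chosen with earlier results of these data known, they are not an independent sample of genes. The median log2 fold change was -0.22 for the members and 0.06 for all tested genes. Of the 47 changes 43 were negative, beside 4435 of the 11465 over all tested genes. In 30 members all 4 knockout values lay below all 4 control values, which held for 14.7% of all tested genes. In 1 member, Mybl2, all knockout values lay above the controls, against 26.7% of tested genes. With median-of-ratios scaling 41 members were lower and 1 higher, beside 25% of all tested genes lower and 22.6% higher. The authors' deposited table calls 33 members lower and 2 higher, beside 14.5% and 29.7% of the genes tested here; the 33 are among the 35. Without control library 4 and knockout library 1, 27 members were lower and 2 higher. So fewer members were called lower, although more genes in all were called in either direction than the 5261 with all libraries. The shares of all tested genes called lower and higher were not computed without this pair. By role 4 of 7 cyclin and CDK1 genes were then lower, 2 of 5 kinases, 3 of 5 checkpoint genes, 5 of 6 APC/C and separation genes and 4 of 7 kinetochore genes. The passenger complex then had 3 of 4 lower, spindle and chromosome structure 3 of 6, cytokinesis 3 of 5 and the transcription factors 0 of 2. The falls were graded rather than uniform, from 59.8% of control for Pttg1 to 91.6% for Aurkb.

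**Figure D1:**
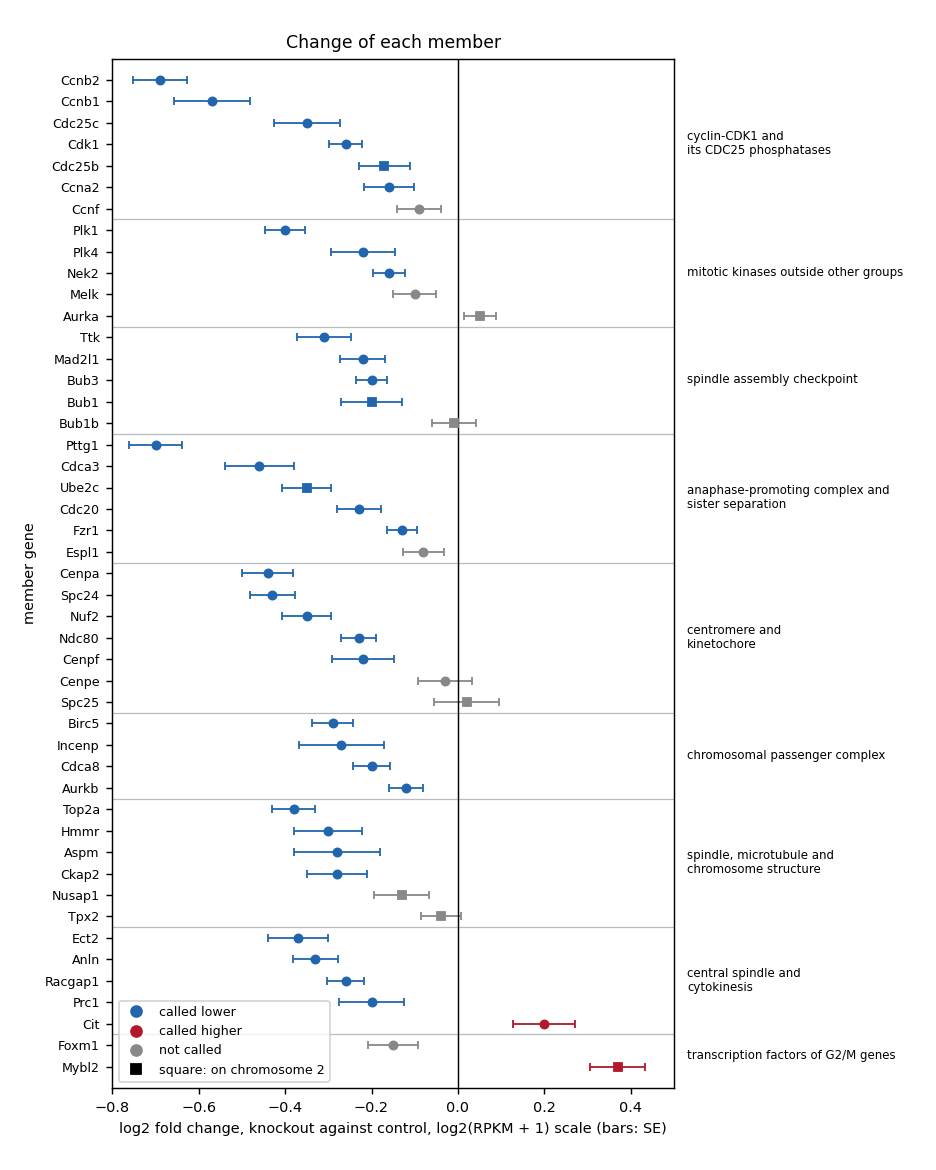
Log2 fold change of each of the 47 members, knockout against control, with its SE, grouped by role; blue is called lower, red called higher, grey not called, and squares mark genes on chromosome 2. Pttg1 (-0.70) and Ccnb2 (-0.69) lie farthest left, and Cit and Mybl2 lie to the right of 0.

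The members were abundant transcripts in control cells. Their mean levels ran from 4.36 RPKM for Cit to 284 RPKM for Top2a, 41 of the 47 were at 20 RPKM or more, and the median member ranked above 82.9% of tested genes. Ube2c at 245 RPKM, Racgap1 at 116, Ccna2 at 115 and Cdk1 at 107 RPKM followed Top2a. Ect2, Plk1, Aurka and Bub3 lay between 58.4 and 76.8 RPKM, and Aspm, at 10.2 RPKM, was the lowest after Cit.

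The cyclin and CDK1 group holds the engine of mitotic entry, and 6 of its 7 genes fell. Ccnb2 and Ccnb1 encode the B-type cyclins that activate CDK1. Ccnb2 stood at 34.1, 33.2, 30.7 and 34.8 RPKM in control libraries 1 to 4 and at 18.6, 20, 22.9 and 19.4 RPKM in knockout libraries 1 to 4. The groups lay far apart, at 60.9% of control (log2 fold change -0.69, SE 0.063, adjusted p = 7.92e-06, limma). Ccnb1 stood at 43.0, 41.6, 39.1 and 43.9 RPKM in controls and at 23.6, 31.9, 31.8 and 25.1 RPKM in knockouts. All knockout values were below all controls, but they split into a lower pair, libraries 1 and 4, and a higher pair, libraries 2 and 3 (log2 fold change -0.57, SE 0.088, adjusted p = 0.000343). Cdc25c, a phosphatase that removes inhibitory phosphate from CDK1, went from 16.3, 14.5, 16.7 and 18.6 to 11.9, 13.6, 13.7 and 11.5 RPKM (76.9% of control, adjusted p = 0.00281).

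Cdk1 itself fell less, from 107 ± 2.87 to 89.3 ± 3.71 RPKM (SD, n = 4 each; log2 fold change -0.26, adjusted p = 0.000224, limma). Its log2 change was under that of Ccnb1 and Ccnb2, though that difference was not tested. Ccna2, the cyclin of S and G2 phase, fell from 115 ± 4.71 to 103 ± 9.36 RPKM with overlapping groups (adjusted p = 0.0413, limma). Cdc25b, another CDC25 phosphatase, fell to 88.5% of control (adjusted p = 0.0333). Both calls were narrow. The adjusted p for Ccna2 was 0.0695, 0.0809 and 0.0976 without control library 1, 2 or 4, and 0.0877 and 0.109 without knockout library 1 or 4. That for Cdc25b was 0.0542, 0.0635, 0.0575 and 0.0719 without control library 1, 2, 3 or 4, and 0.0744 and 0.096 without knockout library 1 or 4. Ccnf, which encodes the F-box protein cyclin F, was not called, at 20.2, 20.5, 21.3 and 22.5 RPKM in controls and 20, 18.5, 21.0 and 19.5 RPKM in knockouts. Its groups overlapped and the 95% interval of its log2 fold change was -0.20 to 0.02; it was called lower with median-of-ratios and upper-quartile scaling (adjusted p = 0.0147 and 0.0194).

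**Figure D2:**
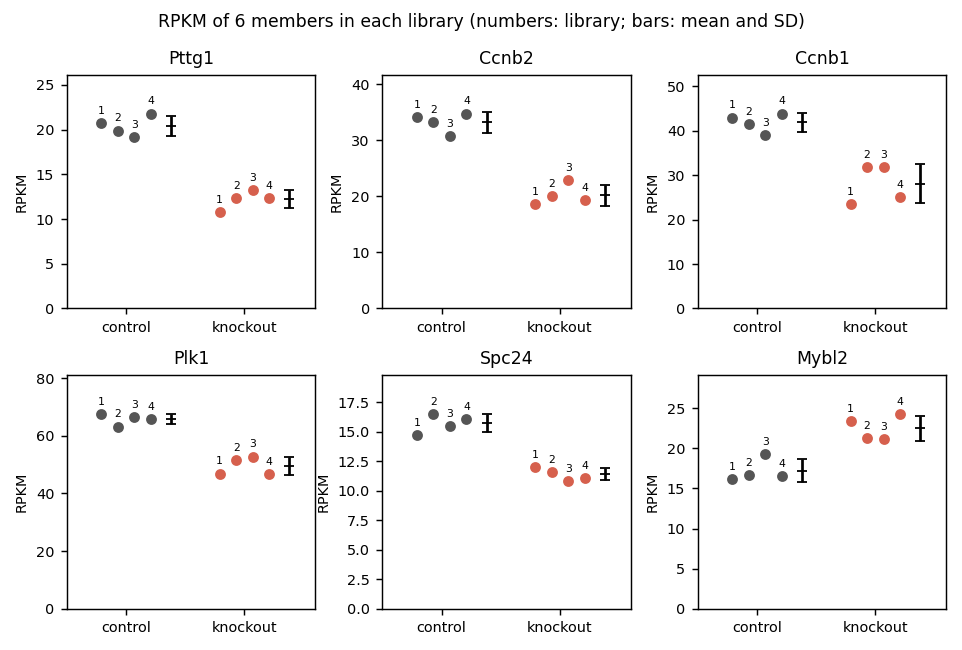
RPKM of Pttg1, Ccnb2, Ccnb1, Plk1, Spc24 and Mybl2 in each of the 8 libraries, numbered within the group, with mean and SD; each axis starts at 0. In the first 5 genes every knockout value lies below every control value, and in Mybl2 every knockout value lies above.

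Promoters of G2/M genes are known for CCAAT boxes, bound by NF-Y, and for the cell cycle genes homology region (CHR), bound by MuvB. RefSeq on GRCm38.p6 gave a promoter for 40 of the 47 members, and the 150 bases before the start are shown for the 3 largest falls and for the 2 members that rose, since these sequences let the motif content be compared. Capitals mark CCAAT on either strand; no CHR core lies inside these stretches. Each is written 5′ to 3′ on the gene's strand.
Pttg1, chr11:43425982-43426131, minus strand: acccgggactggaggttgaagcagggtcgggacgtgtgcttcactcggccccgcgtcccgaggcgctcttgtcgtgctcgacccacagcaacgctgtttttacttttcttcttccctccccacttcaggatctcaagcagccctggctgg
Ccnb2, chr9:70421555-70421704, minus strand: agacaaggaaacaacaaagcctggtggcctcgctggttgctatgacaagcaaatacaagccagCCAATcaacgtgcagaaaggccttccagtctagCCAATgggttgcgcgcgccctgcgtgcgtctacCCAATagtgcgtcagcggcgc
Ccnb1, chr13:100786487-100786636, minus strand: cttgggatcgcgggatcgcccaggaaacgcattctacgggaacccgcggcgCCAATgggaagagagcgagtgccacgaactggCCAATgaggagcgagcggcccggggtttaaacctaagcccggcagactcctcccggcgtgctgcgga
Cit, chr5:115845506-115845655, plus strand: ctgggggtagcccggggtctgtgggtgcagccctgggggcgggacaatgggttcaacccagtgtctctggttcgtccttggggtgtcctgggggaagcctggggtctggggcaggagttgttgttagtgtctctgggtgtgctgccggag
Mybl2, chr2:163054485-163054634, plus strand: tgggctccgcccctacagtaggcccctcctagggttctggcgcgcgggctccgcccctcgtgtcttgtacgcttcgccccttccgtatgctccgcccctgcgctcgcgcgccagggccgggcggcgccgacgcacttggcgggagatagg

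Ccnb2 carries 3 CCAAT boxes, 33 bases apart each, and Ccnb1 carries 2, 32 bases apart. The stretches of Pttg1, Cit and Mybl2 hold none of these letters. Over the whole 300-base windows, from 250 bases before to 50 after the start, CCAAT on either strand was found in 32 of 43 member windows (74.4%), against 37.4% of all 32851 windows in the RefSeq table. The CHR core, searched as TTTGAA and TTCGAA on both strands, was found in 30 of the 43 (69.8%), against 19.2% of all windows. Ccnb2 holds TTTGAA upstream of the stretch shown and again just after its start. The core was in 25 of 33 windows of members called lower and in 5 of 10 windows of the other members. The first count is of windows from 30 genes and the second from 10. Ect2, Prc1 and Bub3, all called lower, have 2 windows each, all with the core, which raises the first count only. TTCGAA reads the same on both strands, and CCAAT and the CHR core are different strings that could share a base at their ends. A match is a string of letters and not a measured binding site.

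Of the 5 mitotic kinases 3 fell and 2 were not called. Plk1, which encodes the polo-like kinase needed for entry, spindle assembly and cytokinesis, stood at 67.6, 63.2, 66.5 and 65.7 RPKM in controls and 46.9, 51.7, 52.8 and 46.8 RPKM in knockouts. Its groups were clear of each other, at 75.3% of control (log2 fold change -0.40, SE 0.047, adjusted p = 4.64e-05, limma). Plk4, the kinase of centriole duplication, stood at 23.6, 23.1, 23.0 and 25.1 RPKM in controls and at 16.9, 22.1, 22.1 and 20.3 RPKM in knockouts, with library 1 well below the rest (adjusted p = 0.031). That call was lost without control library 1, 2 or 4 or knockout library 4 (adjusted p = 0.0616, 0.0534, 0.0715 and 0.0623). Nek2, a kinase of centrosome separation, stood at 47.2, 46.5, 48.1 and 48.3 against 41.1, 43.9, 43.4 and 41.4 RPKM, a small fall with separated groups (89.3% of control, adjusted p = 0.00444).

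Aurka, the kinase of centrosomes and spindle poles, was not called, at 62.7, 64.7, 63.5 and 61.5 RPKM in controls and 64.3, 67.0, 68.2 and 62.9 RPKM in knockouts. Its log2 fold change was 0.05, with a 95% interval of -0.03 to 0.14, and turned to -0.018 and -0.009 with median-of-ratios and upper-quartile scaling. Melk, a kinase gene of dividing cells, was not called either, at 28.3, 27.7, 28.0 and 31.2 against 27.0, 27.0, 28.3 and 25.2 RPKM (log2 fold change -0.10, interval -0.21 to 0.01). With median-of-ratios and upper-quartile scaling Melk was called lower (adjusted p = 0.00914 and 0.0131).

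The spindle assembly checkpoint delays anaphase while kinetochores lack microtubules, and 4 of its 5 genes here fell. Ttk, which encodes the upstream kinase MPS1, stood at 26.6, 25.9, 25.1 and 27.6 RPKM in controls and at 19.1, 22.9, 22.8 and 19.8 RPKM in knockouts. The groups did not meet (80.4% of control, log2 fold change -0.31, SE 0.062, adjusted p = 0.00189, limma). Mad2l1, whose product MAD2 inhibits CDC20, went from 45.4, 47.4, 45.7 and 50.1 to 37.0, 43.7, 40.7 and 40.2 RPKM (85.7% of control, adjusted p = 0.00522). Bub3, a WD-repeat partner of BUB1 and BUBR1, went from 76.6, 75.6, 74.8 and 80.2 to 64.5, 67.0, 67.2 and 68.3 RPKM. Its knockout values were close to each other and below every control (adjusted p = 0.000973).

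The related kinase genes Bub1 and Bub1b both lie on chromosome 2. Bub1 fell to 86.9% of control with overlapping groups (adjusted p = 0.0338, limma). That call was lost without control library 1, 2 or 4 (adjusted p = 0.0699, 0.075 and 0.082) and without knockout library 1 or 4 (0.0784 and 0.102). Bub1b, which encodes BUBR1, was not called, at 56.8, 58.7, 55.3 and 61.0 RPKM in controls and 52.8, 60.7, 60.7 and 56.2 RPKM in knockouts. Its group means differed little (log2 fold change -0.01, 95% interval -0.12 to 0.10), and the sign turned without control library 4 (0.016), knockout library 1 (0.031) or knockout library 4 (0.002).

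Genes of the APC/C pathway and of sister separation fell in 5 of 6 cases. Pttg1, which encodes securin, the inhibitor of separase, stood at 20.7, 19.9, 19.2 and 21.8 RPKM in controls and 10.8, 12.4, 13.2 and 12.4 RPKM in knockouts. The highest knockout value was well under the lowest control (59.8% of control, log2 fold change -0.70, SE 0.062, adjusted p = 6.84e-06, limma). Espl1, which encodes separase itself, was not called, at 22.0, 23.7, 24.7 and 23.0 against 20.8, 22.2, 22.7 and 22.2 RPKM. Its 95% interval was -0.18 to 0.02; with median-of-ratios and upper-quartile scaling Espl1 was called lower (adjusted p = 0.0249 and 0.0266).

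Cdca3, which encodes an F-box-like protein of mitotic entry that is itself an APC/C substrate, stood at 44.5, 44.2, 43.4 and 50.3 RPKM in controls and 27.6, 34.8, 37.4 and 32.4 RPKM in knockouts. Control library 4 was highest and knockout library 1 lowest, with a gap between the groups (72.5% of control, adjusted p = 0.000773, limma). Ube2c, the ubiquitin-conjugating enzyme of the APC/C, went from 248, 250, 243 and 239 to 173, 201, 214 and 181 RPKM. The controls were tight and the knockouts spread below them (78.4% of control, adjusted p = 0.000462). Both APC/C activators fell. Cdc20, used in mitosis, fell to 84.5% of control and Fzr1 (CDH1), used in late mitosis and G1, to 90.9% (adjusted p = 0.00303 and 0.00856).

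Among centromere and kinetochore genes 5 of 7 fell. Cenpa, the histone H3 variant that marks centromeres, stood at 42.5, 42.9, 41.0 and 42.7 RPKM in controls and 28.8, 33.3, 33.6 and 28.1 RPKM in knockouts. Libraries 1 and 4 were again the lower pair (73.2% of control, log2 fold change -0.44, SE 0.059, adjusted p = 0.000116, limma). Cenpf, a large kinetochore and nuclear matrix protein, fell to 86.0% of control (adjusted p = 0.0253). Without control library 2 or 4 the adjusted p for Cenpf was 0.054 and 0.0654, and without knockout library 1 or 4 it was 0.0549 and 0.0764. Cenpe, the kinetochore motor kinesin-7, was not called, at 30.7, 30.7, 29.8 and 32.2 against 26.3, 32.7, 32.2 and 30.0 RPKM. Its knockout libraries lay on both sides of the controls (log2 fold change -0.03, interval -0.17 to 0.11), and without knockout library 1 the value was 0.034.

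The NDC80 complex, the main microtubule coupler of the kinetochore, has 4 subunits, and 3 of their transcripts were called lower. Spc24 stood at 14.7, 16.5, 15.5 and 16.1 RPKM in controls and 12, 11.6, 10.8 and 11.1 RPKM in knockouts, and here libraries 1 and 4 were not the lower pair (72.4% of control, adjusted p = 5.46e-05, limma). Nuf2 went from 55.5, 56.8, 51.7 and 57.8 to 39.6, 45.8, 46.6 and 41.1 RPKM (78.1% of control, adjusted p = 0.000472). Ndc80 fell to 84.9% of control (adjusted p = 0.000725). Spc25, the partner of Spc24 and the subunit whose gene lies on chromosome 2, was not called, at 22.9, 23.9, 21.5 and 24.5 against 20.4, 25.2, 27.0 and 22.3 RPKM. Its groups overlapped widely (log2 fold change 0.02, 95% interval -0.14 to 0.19). Its sign turned with median-of-ratios scaling (-0.046), upper-quartile scaling (-0.037) and without control library 3 (-0.011), knockout library 2 (-0.006) or knockout library 3 (-0.038).

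All 4 genes of the chromosomal passenger complex, which corrects attachments in metaphase and moves to the midzone in anaphase, were called lower. Birc5 (survivin), which anchors the complex, stood at 18.9, 18.9, 18.2 and 20.1 RPKM in controls and 14.7, 15.1, 16.3 and 15.4 RPKM in knockouts, with a clear gap (80.7% of control, adjusted p = 0.000523, limma). Cdca8 (borealin) went from 25.7, 25.2, 24.8 and 25.0 to 20.6, 22.5, 22.5 and 21.4 RPKM (86.5% of control, adjusted p = 0.00242). Aurkb, the kinase of the complex, fell to 91.6% of control (adjusted p = 0.0279). Incenp, its scaffold, stood at 38, 32.4, 34.8 and 25.5 RPKM in controls and 26.8, 27.6, 24.3 and 28.5 RPKM in knockouts. Control library 4 lay inside the knockout range, so the groups overlapped (adjusted p = 0.0437).

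The count for the passenger complex was 2 of 4 without control library 2 or 3 or knockout library 2 or 3, and 3 of 4 without each of the other libraries in turn. Aurkb then had an adjusted p of 0.0592, 0.0652, 0.071 and 0.0571, and Incenp one of 0.083, 0.11, 0.0574 and 0.108 (limma). Without control library 4 the adjusted p for Aurkb was 0.0557. Without control library 1 or knockout library 1 or 4 that for Incenp was 0.131, 0.0625 and 0.0549.

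Spindle and chromosome structure genes fell in 4 of 6 cases. Top2a, the topoisomerase that decatenates sister chromatids, stood at 283, 284, 271 and 297 RPKM in controls and 199, 229, 233 and 208 RPKM in knockouts. The groups were well apart (76.7% of control, log2 fold change -0.38, SE 0.05, adjusted p = 0.000104, limma). Hmmr, a spindle pole protein, went from 32.0, 32.9, 29.7 and 35 to 22.4, 28.8, 28.8 and 24.5 RPKM (80.7% of control, adjusted p = 0.00816). Ckap2, a spindle microtubule protein, fell to 82.2% of control (adjusted p = 0.00623).

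Aspm, a spindle pole protein named for microcephaly, stood at 9.2, 10.5, 9.50 and 11.5 RPKM in controls and 6.90, 9.48, 9.50 and 7.15 RPKM in knockouts, with overlap through libraries 2 and 3 (adjusted p = 0.042, limma). Its adjusted p was 0.095, 0.0517 and 0.104 without control library 2, 3 or 4, and 0.101 and 0.124 without knockout library 1 or 4. Tpx2, the activator of Aurora A on the spindle, was not called, at 58.0, 58.5, 56.3 and 62.0 against 54.1, 60.1, 59.1 and 54.8 RPKM (interval -0.14 to 0.06). Nusap1, a microtubule bundler, was not called, at 37.1, 36.0, 34.0 and 39.2 against 29.5, 34.8, 36.4 and 32.9 RPKM (interval -0.27 to 0.01). Both lie on chromosome 2, and with median-of-ratios scaling both were called lower (adjusted p = 0.0309 and 0.0112); with upper-quartile scaling the adjusted p was 0.0423 and 0.0148.

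Cytokinesis, the step that uses actin most directly, was represented by 5 genes, of which 4 fell and 1 rose. Ect2, the exchange factor that activates RhoA at the equator, stood at 57.0, 59.1, 57.1 and 60.3 RPKM in controls and 39.2, 50.7, 48.2 and 42.3 RPKM in knockouts. Every knockout value was lower (77.3% of control, log2 fold change -0.37, SE 0.069, adjusted p = 0.00111, limma). Anln (anillin), the scaffold that links RhoA, actin and myosin in the ring, went from 34.4, 35.1, 35.4 and 37.8 to 26.1, 30.3, 29.1 and 26.9 RPKM (78.9% of control, adjusted p = 0.000379). Racgap1, the centralspindlin subunit that binds Ect2, went from 113, 114, 116 and 119 to 90.7, 102, 101 and 93.3 RPKM. Its groups were separate (83.6% of control, adjusted p = 0.000504).

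Prc1, which bundles the antiparallel microtubules of the midzone, fell to 86.7% of control with overlapping groups (adjusted p = 0.0454, limma). That call was lost without control library 1, 2 or 4 (adjusted p = 0.0678, 0.0772 and 0.114) and without knockout library 1 or 4 (0.104 and 0.0995). Cit, which encodes citron kinase of the midbody, stood at 4.65, 4.12, 4.69 and 3.99 RPKM in controls and 4.55, 5.70, 5.21 and 5.22 RPKM in knockouts. Knockout library 1 lay inside the control range (log2 fold change 0.20, SE 0.072, adjusted p = 0.0385). Its call was lost without control library 2 or 4 (0.105 and 0.0823), without knockout library 2, 3 or 4 (0.108, 0.0752 and 0.0836), and with median-of-ratios or upper-quartile scaling (0.146 and 0.121).

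Neither of the transcription factors of G2/M genes was called lower. Mybl2, which encodes B-MYB, stood at 16.2, 16.7, 19.3 and 16.6 RPKM in controls and 23.4, 21.3, 21.1 and 24.3 RPKM in knockouts. Every knockout value was above every control, and libraries 1 and 4, low for most members, were the higher pair (131% of control, log2 fold change 0.37, SE 0.064, adjusted p = 0.000735, limma). Mybl2 lies on chromosome 2, and its call was lost once that chromosome's shift was removed, as described under chromosome 2. Foxm1 stood at 23.4, 23.0, 23.6 and 25.7 RPKM in controls and 19.3, 22.4, 23.0 and 21.6 RPKM in knockouts. It was not called (90.1% of control, 95% interval -0.27 to -0.02, adjusted p = 0.0583), so 0 of the 2 factors were called lower, against 1 at an unadjusted p under 0.05. Foxm1 was called lower with median-of-ratios scaling, with upper-quartile scaling and without knockout library 3 (adjusted p = 0.00316, 0.00439 and 0.0369).

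**Figure D3:**
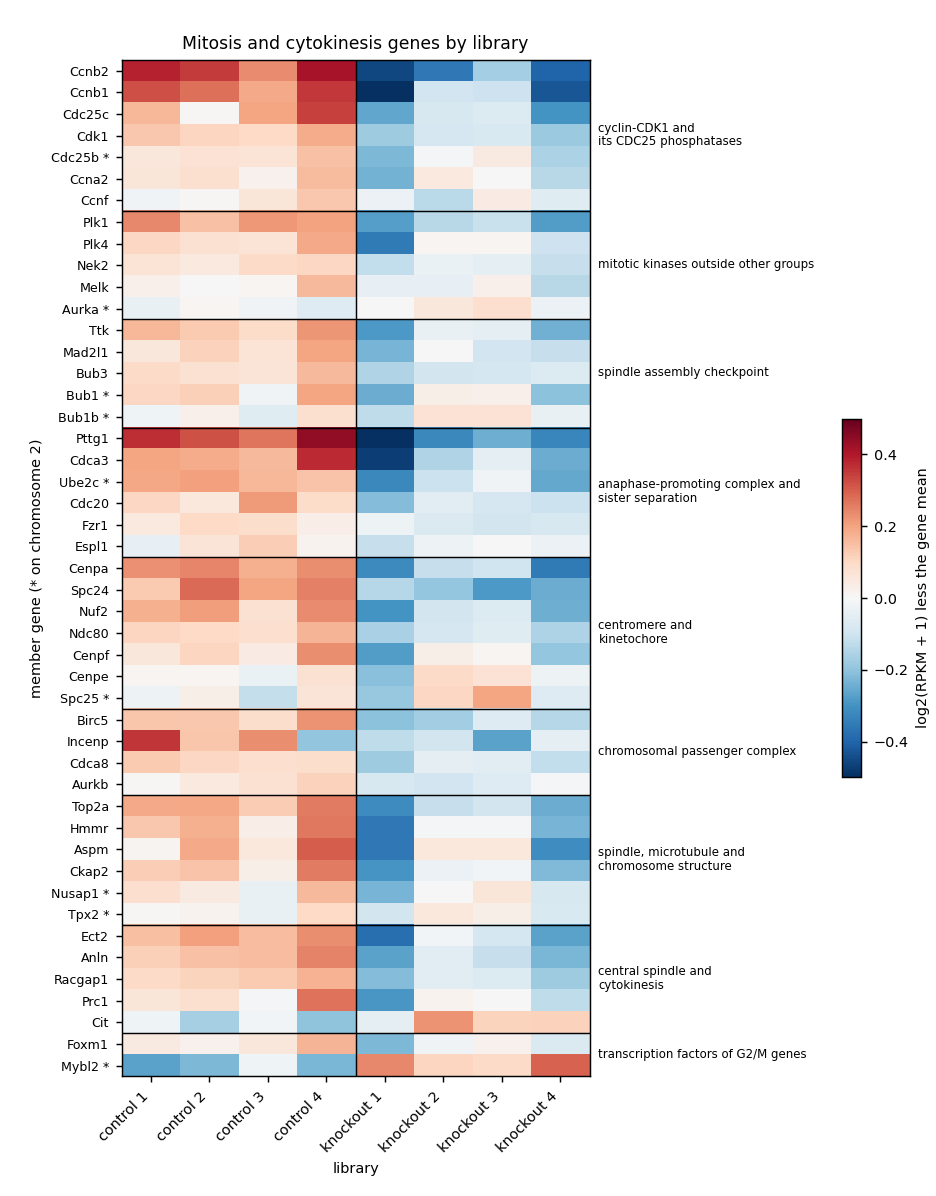
Heat map of log2(RPKM + 1) less each gene's mean over the 8 libraries, members in rows by role and libraries in columns; red is above the gene's mean, blue below, and asterisks mark chromosome 2. Knockout libraries 1 and 4 are darker blue than 2 and 3 over most rows, and control library 4 is the darkest red column.

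The 4 knockout libraries were not alike. Library 1 was below the lowest control in 43 of 47 members, library 2 in 33, library 3 in 32 and library 4 in 39. Over all tested genes the same shares were 32.3%, 24.2%, 24.4% and 24.1%. Library 1 was the lowest of the 4 knockouts in 35 members, library 2 in 2, library 3 in 4 and library 4 in 6, beside 46.1%, 22.2%, 20.9% and 10.7% of all tested genes. Library 3 was the highest of the 4 in 24 members. Among controls, library 4 was the highest in 35 members. No share over all tested genes was computed for these counts of the highest library. The mean of the members, on log2(RPKM + 1) less each gene's mean, was -0.221, -0.045, -0.036 and -0.155 in knockout libraries 1 to 4, and 0.103, 0.105, 0.084 and 0.166 in the controls.

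By role the cyclin and CDK1 group ran at -0.27, -0.101, -0.047 and -0.239 in the knockout libraries, and the kinetochore group at -0.228, -0.036, -0.034 and -0.183. The cytokinesis group ran at -0.24, 0.023, -0.032 and -0.137. The passenger complex was flatter, at -0.147, -0.102, -0.112 and -0.079. The coefficient of variation within the group had a median of 4.53% in controls and 7.62% in knockouts over the members, and was larger in knockouts for 38 of 47. Over all tested genes these medians were 6.03% and 6.47%, and the share larger in knockouts was 52.4%.

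**Figure D4:**
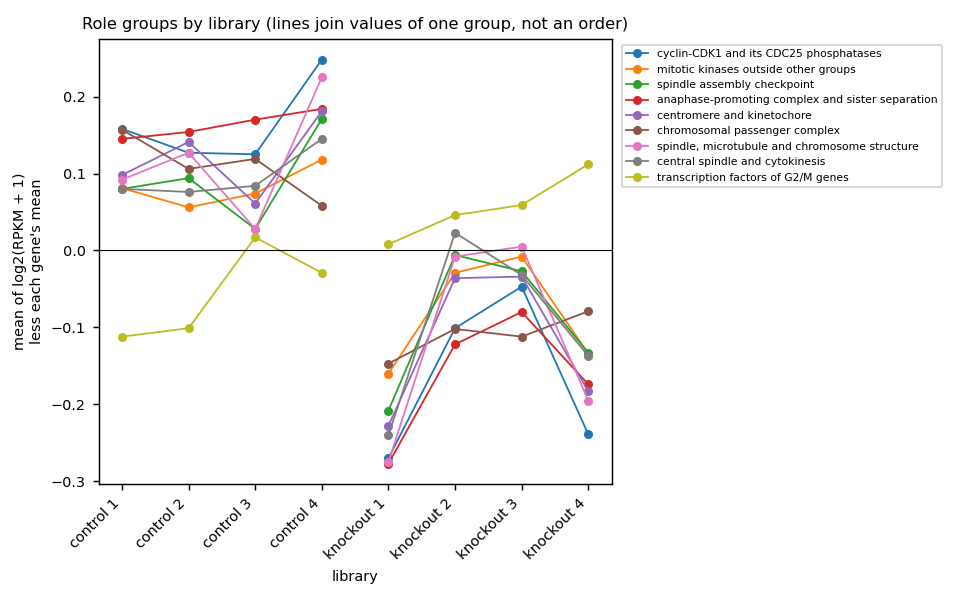
Mean of log2(RPKM + 1) less each gene's mean for the 9 role groups in each of the 8 libraries; lines join the values of a group and carry no order. The groups other than the transcription factors lie above 0 in the controls, and knockout libraries 2 and 3 lie nearer 0 than libraries 1 and 4 in most groups.

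Chromosome 2 carries 9 of the 47 members: Cdc25b, Aurka, Bub1, Bub1b, Ube2c, Spc25, Tpx2, Nusap1 and Mybl2. Tested genes of that chromosome stood higher as a whole in the knockout libraries, with a median log2 fold change of 0.26 against 0.04 for genes elsewhere. Of the 9 members there, 3 were called lower and 1 higher (median -0.04), while 3.8% of all tested genes of chromosome 2 were called lower and 68.5% higher. Of the 38 members elsewhere, 32 were lower and 1 higher (median -0.26), beside 16.5% and 27% of the tested genes elsewhere. So 5 of the 10 members not called lie on chromosome 2.

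The offset of chromosome 2 from the other chromosomes lay between -0.114 and -0.11 in the controls and between 0.106 and 0.122 in the knockouts, on the log2 scale. With that offset taken out of each library, 7 of the 9 were called lower and the median was -0.27. Within a library the same value came off every chromosome 2 gene, so all these fold changes moved down by the same amount. The error of the offset itself did not enter the fit. The share of all chromosome 2 genes called lower after this removal was not computed. Ube2c then had a log2 fold change of -0.58, Bub1 -0.43, Cdc25b -0.40 and Nusap1 -0.35, with adjusted p of 2.15e-05, 0.00066, 0.000371 and 0.00122 (limma). Tpx2 stood at -0.27, Bub1b at -0.23 and Aurka at -0.17 (adjusted p = 0.000884, 0.00375 and 0.00429). Spc25 stood at -0.20 and was not called (adjusted p = 0.055). Mybl2 stood at 0.15 and was no longer called (adjusted p = 0.0824). Over all members 39 were then lower and 1, Cit, higher, beside 16.3% and 26.7% of all tested genes. What shifts chromosome 2 was not tested.

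**Figure D5:**
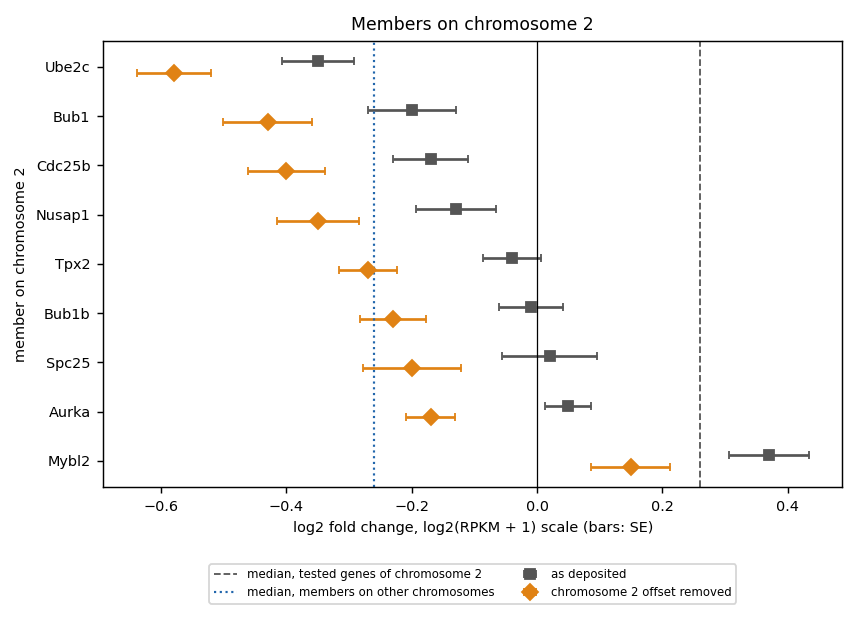
Log2 fold change with SE of the 9 members on chromosome 2, as deposited (squares) and with the chromosome's offset removed in each library (diamonds); lines mark the median of tested chromosome 2 genes (0.26) and of members on other chromosomes (-0.26). After removal 8 of the 9 lie left of 0, and Mybl2 lies at 0.15.

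Other genes of the same machinery were counted from separate lists, to be read against the 15.5% of all tested genes called lower and 30.4% called higher, or 25% and 22.6% with median-of-ratios scaling. Of 20 condensin and cohesin genes 10 were lower (50%) and 3 higher (15%), with a median log2 fold change of -0.14. The condensin subunit gene Ncapg fell to 76.7% of control, and the shugoshin genes Sgol2 and Sgol1, protectors of centromeric cohesion, to 78.7% and 80.2% (adjusted p = 0.00141, 0.00408 and 0.00627, limma). Of 29 other kinetochore and inner centromere genes 9 were lower (31%) and 1 higher (3.4%), with a median of -0.05. The inner kinetochore genes Cenpw and Cenpk fell to 71.6% and 73.5% (adjusted p = 5.49e-06 and 0.000889). With median-of-ratios scaling 13 were lower in each of these lists, with 0 and 1 higher.

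Of 15 genes of WEE1, Greatwall and the mitotic phosphatases 6 were lower (40%) and 1 higher (6.7%), with a median of -0.10. These counts were 9 (60%) and 1 (6.7%) with median-of-ratios scaling. Ccnh, a subunit of the CDK-activating kinase, and Ppp2r2a, a PP2A subunit, fell to 79.3% and 83.8%, and Ensa, an inhibitor of PP2A, rose to 122% (adjusted p = 0.000386, 0.0019 and 0.000831, limma). The APC/C list of 15, its subunits and the enzyme Ube2s, had 2 lower and 2 higher (13.3% each, median 0.01), and the lower share was near that of all tested genes. Cdc27 fell to 74.6% and Ube2s to 82.4%, whereas Anapc2, on chromosome 2, rose to 129% (adjusted p = 0.000868, 0.00274 and 5.77e-05). With median-of-ratios scaling 5 of the APC/C list were lower and 2 higher.

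Of 14 genes of abscission and RhoA 13 were tested, with 2 lower (15.4%) and 5 higher (38.5%), and a median of -0.03. With median-of-ratios scaling these shares were 38.5% and 15.4%, from 5 lower and 2 higher. The lower share was near that of all tested genes as deposited and above it with that scaling. Chmp4b, an ESCRT-III subunit gene on chromosome 2, rose to 141% of control, while Spast (spastin) and Cep55, a midbody protein, fell to 84.6% and 86.1% (adjusted p = 4.83e-05, 0.00123 and 0.0203, limma). In that list 1 gene was lower without knockout library 4, and 3 were higher without control library 1 or 3 or knockout library 4. Of 11 MuvB and DREAM genes 2 were lower (18.2%, near all tested genes) and 1 higher (9.1%), or 4 and 0 with median-of-ratios scaling. Lin9, the MuvB subunit, fell to 78.2% and the E2F partner Tfdp2 to 84.8%, and the repressor gene E2f4 rose to 114% (adjusted p = 0.00161, 0.0194 and 0.00519). There 1 gene was lower without control library 2, and 5 and 3 were higher without control library 4 and without knockout library 1.

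The replication and G1/S list had 37 genes, of which 35 were tested, with 3 lower (8.6%) and 9 higher (25.7%), and a median of 0.04. With median-of-ratios scaling 11 were lower (31.4%) and 8 higher (22.9%), and the higher share was near that of all tested genes. Ccne1 (cyclin E1) stood at 8.05, 8.41, 7.53 and 7.51 RPKM in controls and 13.7, 10.6, 10.9 and 13.1 RPKM in knockouts, so libraries 1 and 4 were the higher pair (153% of control, adjusted p = 0.000205, limma). Ccnd1 (cyclin D1) rose to 129% and E2f1, on chromosome 2, to 127% (adjusted p = 1.84e-05 and 0.000111). E2f1 kept its call in 15 of 16 alternative fits, with a log2 fold change down to 0.10 and an adjusted p up to 0.0656 (limma). These genes are named as the most changed of the list, and the 3 lower genes changed less. Without control library 3 or knockout library 4, 1 gene of that list was lower. No test of the difference between the lists was made.

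Without control library 4 and knockout library 1, condensin and cohesin had 9 lower and 4 higher, the other kinetochore list 7 and 3, and the WEE1, Greatwall and phosphatase list 6 and 2. The APC/C list had 2 lower and 3 higher, abscission and RhoA 1 and 5, MuvB and DREAM 1 and 5, and replication and G1/S 3 and 11. More genes in all were called without this pair than with all libraries. Their shares by direction were not computed, so these counts cannot be set against all tested genes.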

How the data were processed

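RNA from 4 control and 4 PFN1 KO libraries was made with a stranded, ribosomal-RNA-depleted kit, per the labels' protocols. The authors deposited 1 table of RPKM values per gene and library, with their own log2 fold changes and adjusted p-values, whose test is not given in the sources used here. Tools listed in the submitters' processing notes are edgeR, TopHat, Bowtie, RSEM and CASAVA, and the build listed is the human hg19 although the genes are mouse. The build of the RPKM values is therefore uncertain, and gene lengths were taken as the authors used them.

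Testing was limited to genes averaging 1 RPKM or more in either group and was done on log2(RPKM + 1) with limma 3.58.1 in R 4.3.3 (mean-variance trend, group as the only term, two-sided, Benjamini-Hochberg adjusted p under 0.05 over 11465 genes). Fold changes on this scale understate the change of low genes. The fit was tested on simulated data. Relative depth was estimated from the steps that single reads leave in low RPKM values. Its absolute scale assumed that the deposited mean level of genes at 0 in every library stands for 2 added reads. On that assumption depth was 26200000 to 34500000 reads, and the reads per member rest on it too. Median-of-ratios scaling moved the median log2 fold change of all tested genes from 0.06 to -0.01.

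The members and lists were chosen with earlier results of these data known. All members are named; values in every library are given, by role, for the 3 most changed among the called members and for members not called or called higher, and up to 3 called genes are named per related list. One gene of these lists is not reported here. The counts of related genes under the alternatives were added after seeing the data. Promoters and chromosomes came from RefSeq on GRCm38.p6.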

Additional observations from a re-analysis of the deposited data

Results flagged for a closer look

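Among 94 groups of 4 libraries, 47 members in each of the control and knockout groups, 3 held a value far from the other 3 by Dixon's test, which chance gives in about 1 in 20 groups. Cdc25b stood at 24.4 RPKM in control library 4, against 22.9 to 23.1 RPKM in the other controls. Cdca3 stood at 50.3 RPKM in control library 4, against 43.4 to 44.5 RPKM. Mybl2 stood at 19.3 RPKM in control library 3, against 16.2 to 16.7 RPKM. The part of these libraries in the results was not tested beyond leaving each out.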

How the results depend on the processing

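Over 752 comparisons of a member's log2 fold change with an alternative, 646 kept direction and call, 74 lost the call, 16 gained one and 16 changed sign. The call of 28 members was kept in all 16 alternatives. These were 26 of the 35 members called lower, with Cenpe and Spc25, which were called in none. Neither Cit nor Mybl2, the members called higher, kept its call in all 16. Members called lower numbered 26 to 34 with 1 library left out, 27 with no filter and 41 with either scaling. All genes called in either direction, 5261 in the main fit, numbered 4335 to 5485 with 1 library left out. That total was above 5261 with no filter and with either scaling, and below it with the replicate block. With upper-quartile scaling 24% of all tested genes were lower and 23.7% higher. No such shares were computed with a library left out, with no filter or with the block. Members called higher numbered 1 with no filter, with median-of-ratios or upper-quartile scaling, with the chromosome 2 offset removed, and 1 to 2 with 1 library left out. The passenger complex count, 4 with all libraries, was 2 to 3 and the transcription factor count 0 to 1 with 1 library left out, and the latter was 1 with either scaling. Aurka turned to -0.018 (median-of-ratios), -0.009 (upper-quartile) and -0.17 (chromosome 2 offset removed), and Spc25 to -0.046, -0.037 and -0.2. Without control library 4 and knockout library 1, Bub1b turned to 0.056, Cenpe to 0.054 and Tpx2 to 0.009. With 1 library left out Bub1b ran from -0.035 to 0.031, Cenpe from -0.069 to 0.034 and Spc25 from -0.038 to 0.091. The cause was not tested. After each group's mean was taken out, same-numbered libraries correlated at 0.176, 0.023, -0.192 and -0.084. The highest correlation of each control library with a knockout library of another number was 0.082, 0.068, 0.26 and 0.25. Only for number 1 was the same-numbered value the higher. With 4 libraries per group these values cannot exclude a pairing by number. With the replicate block 33 members were lower and 1 higher, and Bub1, Incenp and Cit lost their calls (adjusted p = 0.0529, 0.0573 and 0.0641, limma). RPKM values carry no counts, so counting error enters only through the spread between libraries.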
